A study of Mus musculus with 12 samples.

Results

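Livers of mice that received silibinin together with carbon tetrachloride (CCl4) were compared with control livers, to see what stayed different from healthy liver in spite of the drug. Members were chosen by the group named in the sample titles, which gave 3 livers of the silibinin group and 3 of the control group, 6 of the 12 livers in the series. The mice were C57/BL6N males. In the silibinin group, 8 weeks of CCl4 in olive oil were given into the peritoneum, in 2 injections a week of 5 mL/kg, with silibinin added from week 5. The control livers are labelled WT (wild type) and had no CCl4 according to their group, and what was injected in its place is not given in the sources used here. The age of the mice and whether each library came from a separate mouse are not stated either. The p-values therefore measure the spread between livers of a group, pooled over all 12 livers of the series. Of the remaining 6 livers, 3 belonged to the model group, which received CCl4 on the same schedule without a drug. The other 3 belonged to the phloridzin high-dose group, which received CCl4 on the same schedule with phloridzin added from week 5. All 12 entered the fit, and values of the model group are set beside those of the silibinin group where they help to place them.

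CCl4 is turned into a reactive radical by cytochrome P450 enzymes, above all Cyp2e1, in the hepatocytes around the central vein. Repeated injury of this zone is followed by scar formation, in which stellate cells become myofibroblasts that deposit collagen, macrophages gather along the scar, and hepatocytes divide to replace lost cells. Silibinin is the main flavonolignan of milk thistle extract and is used as a reference drug for liver protection.

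Total RNA was sequenced, and the deposited values are FPKM, fragments scaled by the length of the transcript and the size of the library. Read from the steps between low values, 1 FPKM in a transcript of 1 kilobase stood for 105.2, 108.4 and 109.6 fragments in the control libraries and 106.7, 110.9 and 110.1 fragments in the silibinin libraries, so depth was alike. FPKM was summed over the transcripts of a gene symbol, and livers were scaled by median ratios, with size factors of 0.859, 0.858 and 0.797 for the control livers and 1.02, 1.06 and 0.922 for the silibinin livers. Assembled transcripts without a gene name, which enter no gene sum, took 25.5%, 29.8% and 29.8% of all FPKM in the control livers against 20.3%, 19.4% and 21.3% in the silibinin livers. The groups did not overlap in this share, and its part in the results was not tested. All levels below are scaled FPKM, and fold changes are on the scale of log2(FPKM + 1), which understates the change of genes with low values.

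The livers carried the markers of their tissue. Albumin (Alb), the main plasma protein made by hepatocytes, was at 12774, 18212 and 14436 FPKM in the control livers and 23307, 27626 and 14745 FPKM in the silibinin livers. These ranges overlapped, and the log2 fold change was 0.50 (SE 0.44, limma, Benjamini-Hochberg adjusted p = 0.56). Of the markers of other organs, Cpa1 of the exocrine pancreas was listed at 0 in every liver, and Acta1 and Ckm of skeletal muscle stayed at or under 0.0508 FPKM in the 6 livers. Cela1, an elastase also listed for the exocrine pancreas, was at 9.67, 13.2 and 8.90 FPKM in the control livers and at 6.11, 6.40 and 5.15 FPKM in the silibinin livers, below the control range in all silibinin livers, with a log2 fold change of -0.74 under the cutoff (SE 0.18, limma, Benjamini-Hochberg adjusted p = 0.046). Over the whole list of genes of other tissues, with 24 of 32 genes matched and 7 tested, the summed FPKM was 1273, 1354 and 1238 in the control livers and 532, 523 and 295 in the silibinin livers. Hbb-bs, a haemoglobin gene and the most abundant of them, was at 735, 782 and 685 FPKM against 265, 207 and 159.7 FPKM, all silibinin livers being lower (log2 fold change -1.83, SE 0.61, limma, Benjamini-Hochberg adjusted p = 0.12). Hba-a1, which has a near-identical copy in Hba-a2, so that the share of each is uncertain, fell by 1.74 on the log2 scale (SE 0.32, limma, Benjamini-Hochberg adjusted p = 0.015). Hba-a1 lost its call without control livers 1 or 3 (adjusted p = 0.061 and 0.051, limma, Benjamini-Hochberg), and with only the 6 livers fitted (0.066). Upk3b, a mesothelial gene on the same list, was at 0.383, 0.302 and 0.749 FPKM in the control livers and at 2.86, 1.43 and 2.00 FPKM in the silibinin livers, with no overlap, and rose by 1.05 on the log2 scale (SE 0.25, limma, Benjamini-Hochberg adjusted p = 0.044). Upk3b lost its call without control livers 1, 2 or 3 or silibinin livers 1, 2 or 3 (adjusted p = 0.13, 0.14, 0.06, 0.16, 0.066 and 0.078, limma, Benjamini-Hochberg). Alas2, the first enzyme of haem synthesis in red cell precursors, overlapped between the groups, with a log2 fold change of -0.02. The amount of blood left in a liver was not measured, and its part in the other results was not tested.

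Of 13113 genes with a mean of at least 0.5 FPKM over the 12 livers, limma called 202 different between the silibinin and control groups, with a Benjamini-Hochberg adjusted p-value below 0.05 and a change of more than 1 on the log2 scale in either direction. The silibinin group was higher for 145 of these genes (1.11% of those tested) and lower for 57 (0.435%). In all 202, the 3 silibinin livers lay outside the range of the 3 control livers, as they did in 3883 genes tested. Without the cutoff on fold change, 401 genes were higher and 189 lower, and 2776 genes had an unadjusted p-value under 0.05. The median log2 fold change over all genes was -0.03. Scaling set the balance of directions, since FPKM as deposited gave 229 genes higher and 32 lower and moved that median to 0.16. For scale, 191 genes were higher (1.46%) and 239 lower (1.82%) in the silibinin group than in the model group, and 501 were higher (3.82%) and 481 lower (3.67%) in the model group than in the control group. These 3 comparisons share livers, so their counts are given side by side only.

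**Figure D1:**
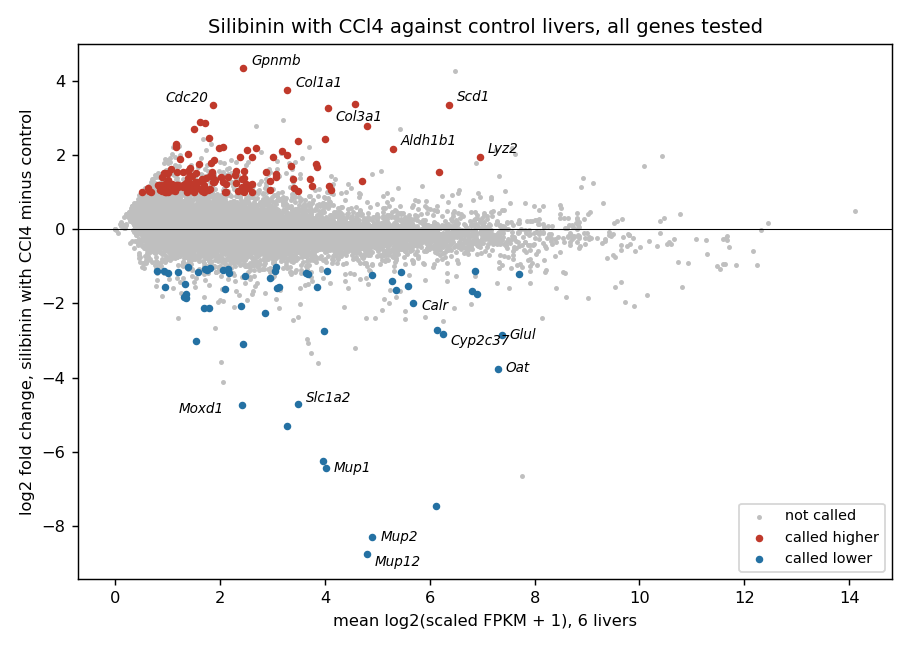
Log2 fold change of the silibinin group over the control group (vertical axis) against the mean level over the 6 livers as log2(scaled FPKM + 1) (horizontal axis), with 1 point for each of the 13113 genes tested. Coloured points are the 145 genes called higher and the 57 called lower.

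The silibinin livers were not alike in how far they stood from the control livers. Among the 145 genes that rose, silibinin liver 3 was the silibinin liver nearest to the control mean in 104, against 29 for silibinin liver 1 and 12 for silibinin liver 2. Among the 57 genes that fell, these numbers were 11 for silibinin liver 3 and 23 for each of the others. Both counts moved when livers were left out 1 at a time, here and below. Genes called higher numbered 89 without control liver 1, 102 without control liver 2, 130 without control liver 3, 71 without silibinin liver 1, 63 without silibinin liver 2 and 198 without silibinin liver 3. For genes called lower, the numbers were 42 without any 1 of the control livers, 37 without silibinin liver 1, 29 without silibinin liver 2 and 65 without silibinin liver 3. Of the 202 genes, 83 were also called without silibinin liver 2 and 169 without silibinin liver 3.

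Genes were grouped in 46 lists by role, with 1371 genes tested of 1564. These lists held 100 of the 202 called genes. By share of tested members, most genes were called higher on the lists of scar-associated macrophages (10 of 25), fibrillar and interstitial collagens (5 of 14) and matrix crosslinking, proteoglycan and elastic fibre genes (10 of 44). Most were called lower on the lists of urinary proteins (7 of 22), male-biased liver genes (8 of 35) and pericentral genes (5 of 22). On 14 lists, no gene was called by limma.

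**Figure D2:**
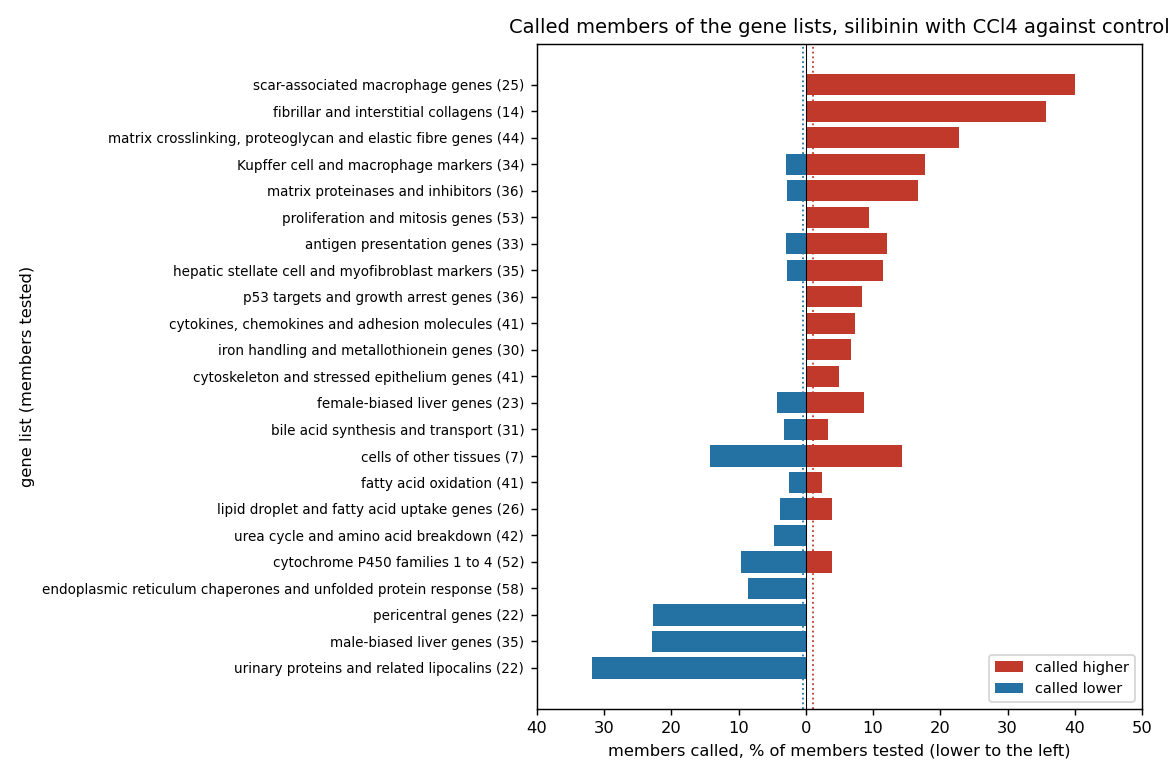
Percent of the tested members of each list that were called higher or lower in the silibinin group than in the control group, for lists with at least 2 called members. Dotted lines mark the percent called among all 13113 genes, 1.11% higher and 0.435% lower, and scar-associated macrophage genes (10 of 25 higher) and urinary proteins (7 of 22 lower) stand farthest from them.

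Genes of the scar matrix were among those that stayed higher with silibinin. Fibrillar and interstitial collagens had 21 genes listed, of which 14 passed the filter on low values. Of these, 5 rose, with a median log2 fold change of 0.80 against -0.03 over all genes. Col1a1 (chr11:94936224-94953042 in GRCm38), which encodes the main chain of type I collagen, stood at 1.94, 1.21 and 1.86 FPKM in the control livers and at 49.8, 46.9 and 17.6 FPKM in the silibinin livers. Every silibinin liver lay far above the control livers, and silibinin liver 3 was the lowest of its group. Col1a1 rose by 3.75 on the log2 scale (SE 0.52, limma, Benjamini-Hochberg adjusted p = 0.005). Col3a1 (chr1:45311538-45349706), the chain of type III collagen, was at 4.63, 3.75 and 4.74 FPKM in the control livers and at 71.4, 64.1 and 28.5 FPKM in the silibinin livers. Here too silibinin liver 3 was the lowest of its group and the ranges were far apart. Col3a1 rose by 3.28 on the log2 scale (SE 0.43, limma, Benjamini-Hochberg adjusted p = 0.0039). For these 2 genes, the model livers were at 39.0, 32.5 and 53.1 FPKM and 57.9, 47.5 and 52.9 FPKM, and the log2 fold changes of the silibinin group over the model group were -0.23 (limma, Benjamini-Hochberg adjusted p = 0.83) and -0.05 (limma, Benjamini-Hochberg adjusted p = 0.96).

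Type VI collagen forms beaded filaments around cells. Its chain Col6a3 (chr1:90765923-90843971) went from 2.03, 1.45 and 1.65 FPKM in the control livers to 11.7, 13.9 and 7.98 FPKM in the silibinin livers, with no overlap, and rose by 2.14 on the log2 scale (SE 0.29, limma, Benjamini-Hochberg adjusted p = 0.0043). With the transcript of highest mean taken for the gene, its adjusted p-value was 0.08 (limma, Benjamini-Hochberg). Col6a2 rose as well, by 1.86 (SE 0.23, limma, Benjamini-Hochberg adjusted p = 0.0031), while Col6a1 had a log2 fold change of 0.05 (SE 0.56, limma, Benjamini-Hochberg adjusted p = 0.98). Col5a2, a chain of type V collagen that helps to start fibrils, rose by 1.02 (SE 0.24, limma, Benjamini-Hochberg adjusted p = 0.044), the smallest of the 5. Col5a2 lost its call without control livers 1, 2 or 3 or silibinin livers 1 or 2 (adjusted p = 0.06, 0.14, 0.1, 0.15 and 0.15, limma, Benjamini-Hochberg). Col1a2, the partner chain of Col1a1, was at 0.657, 0.435 and 0.310 FPKM in the control livers and at 1.88, 1.84 and 4.47 FPKM in the silibinin livers. All silibinin livers were higher, but silibinin liver 3 stood apart at the top, and the log2 fold change of 1.28 was not called (SE 0.43, limma, Benjamini-Hochberg adjusted p = 0.12). A change in the number of cells of a type and a change in RNA per cell cannot be told apart in whole liver.

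Genes that link, coat and organise collagen followed. Of 44 tested genes for matrix crosslinking, proteoglycans and elastic fibres, 10 rose, with a median of 0.54. Lum encodes lumican, a small proteoglycan that spaces collagen fibrils. It was at 4.44, 3.09 and 3.90 FPKM in the control livers and at 19.3, 29.8 and 10.6 FPKM in the silibinin livers, with silibinin liver 2 the highest and no overlap. Lum rose by 2.02 on the log2 scale (SE 0.32, limma, Benjamini-Hochberg adjusted p = 0.0084). Ltbp2, a microfibril protein, was at 0.261, 0.203 and 0.191 FPKM in the control livers and at 4.66, 4.41 and 2.00 FPKM in the silibinin livers, so that the highest control liver was well under the lowest silibinin liver. It rose by 1.89 on the log2 scale (SE 0.23, limma, Benjamini-Hochberg adjusted p = 0.0032). Loxl1, which links elastin, was at 0.621, 0.352 and 0.576 and 4.51, 4.85 and 2.29 FPKM in these groups. The groups did not overlap, and Loxl1 rose by 1.65 on the log2 scale (SE 0.24, limma, Benjamini-Hochberg adjusted p = 0.0065). Its substrate elastin (Eln) rose by 1.53 on the log2 scale (SE 0.23, limma, Benjamini-Hochberg adjusted p = 0.0079), a call lost when only protein-coding transcripts were summed (adjusted p = 0.3, limma, Benjamini-Hochberg). Sparc, Sparcl1, Loxl2, Postn, Fbn1 and Thbs2 made up the rest, with log2 fold changes of at least 1.02, that of Thbs2. Lox itself, the lysyl oxidase of the panel, was at 0.0842, 0.0674 and 0.341 FPKM in the control livers and at 1.47, 1.79 and 0.699 FPKM in the silibinin livers. Its ranges were apart and its adjusted p-value was 0.035 (limma, Benjamini-Hochberg), but its log2 fold change of 0.97 stayed under the cutoff. Without silibinin liver 3, Lox was called higher.

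The number of genes called on this list was 7, 9 and 8 without control livers 1, 2 and 3 and 8, 6 and 11 without silibinin livers 1, 2 and 3. Lum, Ltbp2, Loxl1, Eln and Sparcl1 were called without any 1 of the 6 livers, but Sparcl1 was not with only these 6 livers fitted (adjusted p = 0.058, limma, Benjamini-Hochberg). Sparc lost its call without control livers 1, 2 or 3 or silibinin livers 1, 2 or 3 (adjusted p = 0.13, 0.13, 0.084, 0.16, 0.13 and 0.05, limma, Benjamini-Hochberg). Postn lost its call without control livers 1 or 3 or silibinin livers 1 or 2 (adjusted p = 0.055, 0.058, 0.079 and 0.075, limma, Benjamini-Hochberg). Loxl2 lost its call without control liver 1 or silibinin livers 1 or 2 (adjusted p = 0.05, 0.057 and 0.059, limma, Benjamini-Hochberg). Without silibinin liver 2, Fbn1 and Thbs2 had adjusted p-values of 0.035 and 0.013 (limma, Benjamini-Hochberg) but had log2 fold changes of 1.00 and 0.96, not past the cutoff, and Thbs2 was at 0.98 without control liver 3. Of 18 tested basement membrane genes, limma called 0, limma voom on recovered fragment numbers, a fit chosen after seeing the data, called 3, all higher, and 7 had an unadjusted p-value under 0.05 with limma. Their median was 0.32, and limma called 1 without control liver 2 and 2 without silibinin liver 3.

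Matrix proteinases and their inhibitors had 36 genes tested, of which 6 rose and 1 fell, with a median of 0.52. Mmp2, a gelatinase of myofibroblasts, was at 1.20, 0.702 and 0.870 FPKM in the control livers and at 8.33, 11.7 and 5.01 FPKM in the silibinin livers. All silibinin livers were higher, with silibinin liver 3 again the lowest of them, and Mmp2 rose by 2.22 on the log2 scale (SE 0.22, limma, Benjamini-Hochberg adjusted p = 0.0015). Mmp12, the elastase of macrophages, was near 0 in the control livers at 0.0445, 0.0288 and 0.0434 FPKM and at 5.77, 4.40 and 2.04 FPKM in the silibinin livers. The model livers were higher still, at 8.08, 11.3 and 12.6 FPKM. Mmp12 rose by 2.21 on the log2 scale (SE 0.41, limma, Benjamini-Hochberg adjusted p = 0.016) over the control group, and its log2 fold change over the model group was -1.26 (limma, Benjamini-Hochberg adjusted p = 0.072). Mmp12 lost its call without control livers 1 or 2 or silibinin livers 1 or 2 (adjusted p = 0.056, 0.053, 0.071 and 0.066, limma, Benjamini-Hochberg). Timp2, which inhibits metalloproteinases, rose by 1.31 on the log2 scale (SE 0.23, limma, Benjamini-Hochberg adjusted p = 0.012). Timp2 lost its call without control liver 1 or silibinin livers 1 or 2 (adjusted p = 0.05, 0.058 and 0.055, limma, Benjamini-Hochberg). Ctsk, a collagen-cleaving cathepsin, and the procollagen and proteoglycan proteinases Adamts2 and Adamts5 rose by 1.19, 1.09 and 1.15, and held their calls without any 1 liver. The member that fell was Serpine2, an inhibitor of serine proteinases, at 12.2, 12 and 17.5 FPKM in the control livers and at 3.40, 5.41 and 3.29 FPKM in the silibinin livers. No silibinin liver reached the control range, and Serpine2 fell by 1.57 on the log2 scale (SE 0.25, limma, Benjamini-Hochberg adjusted p = 0.0084). Timp1, the best known inhibitor in fibrotic liver, was at 0.125, 0.0974 and 0 and 0.683, 0.448 and 0.669 FPKM, with a log2 fold change of 0.57 that was not called (SE 0.27, limma, Benjamini-Hochberg adjusted p = 0.25). Genes called higher on this list numbered 4, 6 and 8 without control livers 1, 2 and 3 and 4, 4 and 9 without silibinin livers 1, 2 and 3.

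Markers of stellate cells and myofibroblasts, the cells that make this matrix, were less uniform. Of 35 tested, 4 rose and 1 fell, with a median of 0.27, and the summed level was 150.1, 159 and 179.6 FPKM in the control livers against 227, 211 and 177 FPKM in the silibinin livers, which overlap. Wt1, a transcription factor of the mesothelial and stellate lineage, was at 0.101, 0.0759 and 0.395 FPKM in the control livers and at 3.16, 2.56 and 1.71 FPKM in the silibinin livers. The groups did not overlap, and Wt1 rose by 1.53 on the log2 scale (SE 0.19, limma, Benjamini-Hochberg adjusted p = 0.0032). Gpc3, a cell surface proteoglycan, and Pdgfra, a growth factor receptor of fibroblasts, rose by 1.45 (SE 0.33, limma, Benjamini-Hochberg adjusted p = 0.036) and 1.06 (SE 0.25, limma, Benjamini-Hochberg adjusted p = 0.044). Gpc3 lost its call without control livers 1, 2 or 3 or silibinin livers 1 or 2 (adjusted p = 0.098, 0.12, 0.063, 0.13 and 0.12, limma, Benjamini-Hochberg). Pdgfra lost its call without control livers 1, 2 or 3 or silibinin livers 1, 2 or 3 (adjusted p = 0.068, 0.067, 0.088, 0.11, 0.15 and 0.065, limma, Benjamini-Hochberg), and its log2 fold change was 0.53 with the transcript of highest mean (adjusted p = 0.51). Angptl6, a secreted angiopoietin-like protein, was at 4.74, 5.64 and 5.91 FPKM in the control livers and at 2.02, 2.04 and 2.02 FPKM in the silibinin livers. Its silibinin livers were nearly equal and below all control livers, and Angptl6 fell by 1.08 on the log2 scale (SE 0.16, limma, Benjamini-Hochberg adjusted p = 0.0065). With FPKM as deposited, its log2 fold change was -0.87, under the cutoff.

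Of the 35 stellate cell genes, 18 had an unadjusted p-value under 0.05 with limma, against 2776 of 13113 genes tested. In 14 of the 35, all silibinin livers were above the control range, against 1889 of all genes tested. Lrat, which esterifies retinoids, and Vim, a filament of mesenchymal cells, were above it without being called, with log2 fold changes of 0.67 and 1.35 and adjusted p-values of 0.035 and 0.053 (limma, Benjamini-Hochberg). Acta2, the smooth muscle actin of myofibroblasts, was at 4.63, 0.320 and 0.765 FPKM in the control livers and at 2.47, 1.63 and 2.55 FPKM in the silibinin livers. Control liver 1 was above every silibinin liver, and the log2 fold change was 0.44 (SE 0.53, limma, Benjamini-Hochberg adjusted p = 0.69). Pdgfrb, the platelet-derived growth factor receptor of stellate cells, ranged from 0.199 to 3.75 FPKM within the silibinin group and had a log2 fold change of 0.24 (SE 0.50, limma, Benjamini-Hochberg adjusted p = 0.83). Among the 39 tested genes of the TGF-beta family and its response, limma called 0 and limma voom 1, 16 had an unadjusted p-value under 0.05 with limma, and the median was 0.02. Tgfb1, the main fibrogenic ligand, was above the control range in all silibinin livers, at 4.12, 3.80 and 4.58 against 5.44, 6.90 and 7.17 FPKM, with a log2 fold change of 0.53 that was not called (SE 0.17, limma, Benjamini-Hochberg adjusted p = 0.11). Genes called higher on the stellate cell list numbered 2, 2 and 3 without control livers 1, 2 and 3 and 2, 2 and 5 without silibinin livers 1, 2 and 3.

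**Figure D3:**
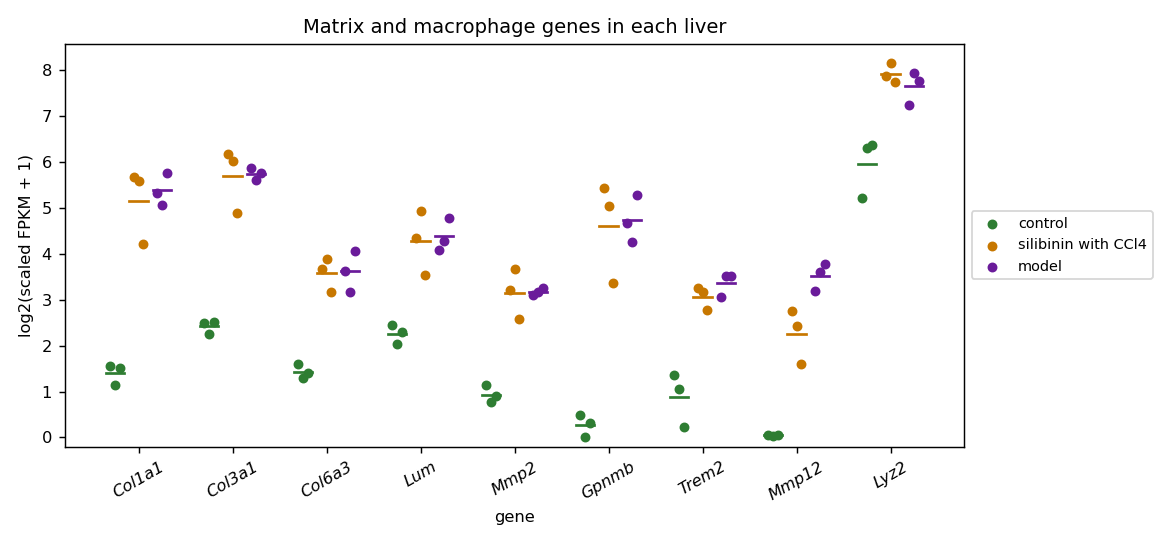
Levels of 9 scar genes as log2(scaled FPKM + 1) in the control, silibinin and model livers, with 1 point for each liver and a bar at the group mean. In all 9, the 3 silibinin livers lie above the 3 control livers, and silibinin liver 3 is the lowest silibinin liver in each.

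Macrophage genes gave the largest single rise. Scar-associated macrophages are a state of monocyte-derived cells found along fibrous septa, and 10 of their 25 listed genes rose, with a median of 1.21. The summed level of the list was 874, 1084 and 1729 FPKM in the control livers and 1759.9, 1732 and 2345 FPKM in the silibinin livers. Apoe, which hepatocytes also make, held 931 FPKM of this in control liver 3 and 1364 FPKM in silibinin liver 3. Gpnmb (chr6:49036546-49070929), a glycoprotein of lipid-laden macrophages, was at 0.404, 0 and 0.242 FPKM in the control livers and at 42.5, 31.8 and 9.31 FPKM in the silibinin livers. It was listed at 0 in control liver 2 and was hardly present in the others, while silibinin liver 3 held less than the other silibinin livers. Gpnmb rose by 4.35 on the log2 scale (SE 0.56, limma, Benjamini-Hochberg adjusted p = 0.0038). With limma voom its adjusted p-value was 0.075 (Benjamini-Hochberg). Trem2, a lipid receptor of these cells, was at 1.58, 1.07 and 0.167 FPKM in the control livers and at 8.54, 8.02 and 5.89 FPKM in the silibinin livers. The groups were apart, and Trem2 rose by 2.19 on the log2 scale (SE 0.34, limma, Benjamini-Hochberg adjusted p = 0.0086), with an adjusted p-value of 0.24 (limma, Benjamini-Hochberg) when the transcript of highest mean stood for the gene. The model livers were at 24.3, 18.3 and 38.2 FPKM for Gpnmb and 7.38, 10.5 and 10.4 FPKM for Trem2. Neither differed between the silibinin and model groups by the test, with adjusted p-values of 0.92 and 0.65 (limma, Benjamini-Hochberg).

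The other members that rose were Lpl, Mmp12, Cd63, Clec7a, Capg, Atp6v0d2, Ctsk and Itgax. Itgax, the integrin CD11c, was at 0.199, 0.279 and 0.15 FPKM in the control livers and at 1.85, 1.92 and 1.51 FPKM in the silibinin livers, with little spread in either group, and rose by 1.19 on the log2 scale (SE 0.15, limma, Benjamini-Hochberg adjusted p = 0.0038). Lpl, the lipase that frees fatty acids from lipoproteins, was at 3.88, 3.26 and 4.63 FPKM in the control livers and at 29.7, 29.8 and 16.9 FPKM in the silibinin livers. All silibinin livers were higher, and Lpl rose by 2.39 on the log2 scale (SE 0.54, limma, Benjamini-Hochberg adjusted p = 0.035). Lpl lost its call without control livers 1, 2 or 3 or silibinin livers 1 or 2 (adjusted p = 0.098, 0.11, 0.071, 0.12 and 0.13, limma, Benjamini-Hochberg), and with protein-coding transcripts only its adjusted p-value was 0.35. Cd63, a protein of lysosomal membranes, rose by 1.96 on the log2 scale (SE 0.38, limma, Benjamini-Hochberg adjusted p = 0.019). Cd63 lost its call without control livers 1 or 2 or silibinin livers 1 or 2 (adjusted p = 0.058, 0.067, 0.079 and 0.081, limma, Benjamini-Hochberg). The calls of Clec7a and Atp6v0d2 were also lost without single livers, Clec7a without control liver 1, control liver 3, silibinin liver 1 or silibinin liver 2 at adjusted p-values from 0.08 to 0.11, and Atp6v0d2 without silibinin liver 1 at 0.051 (limma, Benjamini-Hochberg). Spp1 and Cd9, which mark the same cells, were above the control range in every silibinin liver but were not called, with log2 fold changes of 1.21 and 0.80 and adjusted p-values of 0.086 and 0.069 (limma, Benjamini-Hochberg). For Spp1, silibinin liver 3 at 18.5 FPKM all but met control liver 3 at 18.3 FPKM, and without silibinin liver 3 it was called higher. Genes called higher on this list numbered 6, 8 and 8 without control livers 1, 2 and 3 and 5, 6 and 13 without silibinin livers 1, 2 and 3.

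On the list of Kupffer cell and general macrophage markers, 6 of 34 tested genes rose and 1 fell, with a median of 0.40. Its summed level was 456, 648 and 618 FPKM in the control livers and 799, 1007 and 904 FPKM in the silibinin livers. Lyz2, the lysozyme of myeloid cells, was at 36.3, 78.2 and 81.6 FPKM in the control livers and at 236, 286 and 213 FPKM in the silibinin livers. Its control liver 1 was the lowest, all silibinin livers were higher, and Lyz2 rose by 1.97 on the log2 scale (SE 0.36, limma, Benjamini-Hochberg adjusted p = 0.015). Lyz2 lost its call without silibinin livers 1 or 2 (adjusted p = 0.057 and 0.066, limma, Benjamini-Hochberg). Ccr2 and Cx3cr1, chemokine receptors of blood monocytes and their descendants, were at 0.477, 0.905 and 0.683 and 0.168, 0.383 and 0.245 FPKM in the control livers. In the silibinin livers they were at 3.28, 2.95 and 2.51 and 1.86, 2.13 and 1.88 FPKM, apart from the control livers in both cases. Ccr2 rose by 1.22 on the log2 scale (SE 0.15, limma, Benjamini-Hochberg adjusted p = 0.0032), and Cx3cr1 rose by 1.23 on the log2 scale (SE 0.17, limma, Benjamini-Hochberg adjusted p = 0.0049). Cybb, a subunit of the phagocyte oxidase, rose by 1.36 on the log2 scale (SE 0.16, limma, Benjamini-Hochberg adjusted p = 0.0031). Ms4a7 rose by 1.55 and was lost without silibinin liver 2 at an adjusted p-value of 0.052 (limma, Benjamini-Hochberg). Itgam, the integrin CD11b, rose by 1.11 (SE 0.26, limma, Benjamini-Hochberg adjusted p = 0.043). Itgam lost its call without control livers 1 or 2 or silibinin livers 1 or 2 (adjusted p = 0.11, 0.12, 0.11 and 0.15, limma, Benjamini-Hochberg), and its log2 fold change was 0.29 with the transcript of highest mean (adjusted p = 0.81).

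None of 5 markers of resident Kupffer cells was called. Clec4f, which in liver is made by Kupffer cells, was at 16.1, 27.2 and 29.6 FPKM in the control livers and at 12.8, 18.9 and 12.5 FPKM in the silibinin livers. The ranges overlapped, and the log2 fold change was -0.66 (SE 0.42, limma, Benjamini-Hochberg adjusted p = 0.4). Vsig4, Timd4 and Cd5l overlapped between the groups too, with log2 fold changes of 0.17, -0.34 and 0.32, and Adgre1 was above the control range, at 0.68. Cd163, the haemoglobin scavenger receptor, was at 11.9, 13.2 and 8.77 FPKM in the control livers and at 4.26, 4.03 and 5.55 FPKM in the silibinin livers. All silibinin livers were lower, and Cd163 fell by 1.12 on the log2 scale (SE 0.27, limma, Benjamini-Hochberg adjusted p = 0.045), a call lost without any 1 of the 6 livers, at adjusted p-values from 0.055 to 0.15 (limma, Benjamini-Hochberg), and with FPKM as deposited, at 0.082. Cd68, a lysosomal marker of macrophages, overlapped as well, with a log2 fold change of 0.32. Genes called higher on this list numbered 5, 5 and 7 without control livers 1, 2 and 3 and 4, 3 and 6 without silibinin livers 1, 2 and 3.

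Genes of antigen presentation by MHC class II were among those that rose. Of 33 tested genes of antigen presentation, 4 rose and 1 fell, with a median of -0.06. H2-Eb1 (chr17:34305867-34316674), a class II beta chain, was at 6.21, 9.54 and 6.33 FPKM in the control livers and at 16.3, 24.7 and 20.2 FPKM in the silibinin livers. The groups were apart, with silibinin liver 2 the highest, and H2-Eb1 rose by 1.36 on the log2 scale (SE 0.20, limma, Benjamini-Hochberg adjusted p = 0.0061). The class II chains H2-Aa and H2-Ab1 and their transcriptional activator Ciita rose by 1.18, 1.16 and 1.10. With protein-coding transcripts only, Ciita was at 0.78, under the cutoff. H2-Aa lost its call without control livers 1 or 3 or silibinin liver 2 (adjusted p = 0.08, 0.062 and 0.085, limma, Benjamini-Hochberg). H2-Ab1 lost its call without control livers 1 or 3 or silibinin livers 1 or 2 (adjusted p = 0.093, 0.067, 0.051 and 0.098, limma, Benjamini-Hochberg). Calr, listed here for its part in loading class I molecules, was the member that fell and is described with the endoplasmic reticulum. Of 21 tested markers of T, B and natural killer cells, limma called 0 and limma voom 1, although 12 had an unadjusted p-value under 0.05 with limma and the median was 0.50. Their summed level was 12.7, 23.4 and 19.2 FPKM in the control livers and 32, 77.8 and 48.6 FPKM in the silibinin livers, with the immunoglobulin gene Igkc the most abundant. Of 57 tested interferon-stimulated genes, limma and limma voom called 0 and 5 had an unadjusted p-value under 0.05, with a median of -0.09. Among 41 cytokines, chemokines and adhesion molecules tested, 3 rose, with a median of 0.32, while 19 were called higher in the model group than in the control group. The 3 that rose were Ccr2, Cxcr4 and Itgb2, all receptors on leukocytes. Of all genes tested, 1.11% were called higher than control in the silibinin group and 3.82% in the model group. Itgb2 lost its call without control livers 1 or 2 or silibinin livers 1 or 2 (adjusted p = 0.11, 0.11, 0.085 and 0.14, limma, Benjamini-Hochberg). The chemokine Ccl2 was listed at 0 in all control livers and in silibinin livers 1 and 2, and at 2.70 FPKM in silibinin liver 3.

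Of 53 tested genes of proliferation and mitosis, 5 rose, and 40 were above the control range in all silibinin livers, against 1889 of 13113 genes tested. The median log2 fold change was 1.01. Cdc20 (chr4:118432901-118437352), the activator of the anaphase-promoting complex, was at 0.0494, 0.138 and 0.230 FPKM in the control livers and at 13, 13.2 and 6.79 FPKM in the silibinin livers. The control livers were near 0 and silibinin liver 3 was the lowest of its group. Cdc20 rose by 3.35 on the log2 scale (SE 0.64, limma, Benjamini-Hochberg adjusted p = 0.019). Ccnb1 (chr13:100778650-100786570) and Ccnb2 (chr9:70407692-70421547), the B cyclins that drive entry into mitosis, were at or under 0.354 FPKM in the control livers. In the silibinin livers, Ccnb1 was at 8.88, 6.47 and 4.13 FPKM and Ccnb2 at 11.6, 10.7 and 3.63 FPKM. Ccnb1 rose by 2.71 on the log2 scale (SE 0.59, limma, Benjamini-Hochberg adjusted p = 0.031), and Ccnb2 rose by 2.86 on the log2 scale (SE 0.61, limma, Benjamini-Hochberg adjusted p = 0.029). Ect2 (chr3:27097222-27153878), an exchange factor needed for cytokinesis, was at 0.303, 0.512 and 0.583 FPKM in the control livers and at 8.83, 7.45 and 5.39 FPKM in the silibinin livers. The ranges were far apart, and Ect2 rose by 2.47 on the log2 scale (SE 0.50, limma, Benjamini-Hochberg adjusted p = 0.023).

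With 1 liver left out, log2 fold changes ran from 3.20 to 3.63 for Cdc20, 2.49 to 2.96 for Ccnb1, 2.60 to 3.33 for Ccnb2 and 2.33 to 2.64 for Ect2, while calls were lost by the adjusted p-value. Cdc20 lost its call without control livers 1 or 2 or silibinin livers 1 or 2 (adjusted p = 0.066, 0.058, 0.074 and 0.076, limma, Benjamini-Hochberg). Ccnb1 lost its call without control livers 1, 2 or 3 or silibinin livers 1 or 2 (adjusted p = 0.095, 0.094, 0.065, 0.11 and 0.1, limma, Benjamini-Hochberg). Ccnb2 lost its call without control livers 1, 2 or 3 or silibinin livers 1 or 2 (adjusted p = 0.079, 0.087, 0.072, 0.11 and 0.11, limma, Benjamini-Hochberg). Ect2 lost its call without control livers 1, 2 or 3 or silibinin livers 1 or 2 (adjusted p = 0.081, 0.068, 0.057, 0.087 and 0.084, limma, Benjamini-Hochberg). By limma voom on recovered fragments, adjusted p-values were 0.12 for Cdc20, 0.18 for Ccnb1 and 0.1 for Ccnb2 (Benjamini-Hochberg). Genes called higher on the list numbered 1, 1 and 2 without control livers 1, 2 and 3 and 0, 1 and 5 without silibinin livers 1, 2 and 3. With only the 6 livers fitted the number was 24, with pseudocounts of 0.1 and 0.5 it was 18 and 10, and by limma voom it was 2. The main fit also takes in the spread of the phloridzin livers, where the list summed to 656, 195 and 156 FPKM. In the silibinin livers the sums were 240, 240 and 192 FPKM. The part of phloridzin liver 1 in the lost calls was not tested. Mki67, a protein of dividing cells, was above the control range in all silibinin livers, at 0.0660, 0.0748 and 0.342 against 3.77, 2.09 and 1.95 FPKM, with a log2 fold change of 1.61 that was not called (SE 0.49, limma, Benjamini-Hochberg adjusted p = 0.094). Ccnd1, the cyclin of the G1 phase, was at 3.64, 3.18 and 3.09 FPKM in the control livers and at 13.9, 9.68 and 11.4 FPKM in the silibinin livers, and the model livers were at 25.9, 28.9 and 30.6 FPKM. The silibinin livers lay between the other groups without meeting either. Ccnd1 rose by 1.55 on the log2 scale (SE 0.27, limma, Benjamini-Hochberg adjusted p = 0.012) over the control group and was lower than in the model group by a log2 fold change of -1.23 (limma, Benjamini-Hochberg adjusted p = 0.016). Ccnd1 lost its call without silibinin liver 1 (adjusted p = 0.059, limma, Benjamini-Hochberg).

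The promoters of Cdc20 and Ccnb2 are shown because genes of this phase share short elements near their start, the CHR element (TTTGAA) and the CCAAT box (CCAAT). Windows around the start of each gene are from RefSeq (GRCm38.p6) and run 5′ to 3′ on the strand of the gene, capitals mark matches found on either strand, and positions count from the start as 0. The Cdc20 window is chr4:118437294-118437593, minus strand, and that of Ccnb2 is chr9:70421505-70421804, minus strand.
Cdc20: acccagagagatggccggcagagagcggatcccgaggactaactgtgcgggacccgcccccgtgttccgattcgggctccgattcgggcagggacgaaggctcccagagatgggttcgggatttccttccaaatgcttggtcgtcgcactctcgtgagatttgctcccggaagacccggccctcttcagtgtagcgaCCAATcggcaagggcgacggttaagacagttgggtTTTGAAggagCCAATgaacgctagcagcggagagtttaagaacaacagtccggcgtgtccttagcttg
Ccnb2: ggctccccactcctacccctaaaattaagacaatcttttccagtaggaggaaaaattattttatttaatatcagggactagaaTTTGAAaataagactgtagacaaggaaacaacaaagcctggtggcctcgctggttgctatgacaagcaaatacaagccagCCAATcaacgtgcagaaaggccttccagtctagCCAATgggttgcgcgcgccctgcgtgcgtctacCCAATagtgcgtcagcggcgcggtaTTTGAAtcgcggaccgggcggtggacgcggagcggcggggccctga
TTTGAA begins at -18 in Cdc20 and at -167 and 4 in Ccnb2, and CCAAT begins at -53 and -8 in Cdc20 and at -87, -54 and -21 in Ccnb2. Of the mitosis genes called higher, 4 had a window, of which 3 held TTTGAA and 4 held CCAAT. Among tested members of the list, 17 of 41 with a window held TTTGAA (41.5%) and 32 of 41 held CCAAT (78%), against 20.2% and 41.1% of 27025 genes. A match describes the letters only, and binding to it was not measured.

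Of 36 tested p53 targets and growth arrest genes, 3 rose, with a median of 0.08. Ckap2 (chr8:22168160-22185819), a protein of the mitotic spindle, was at 0, 0.118 and 0.244 FPKM in the control livers and at 10.2, 9.78 and 3.78 FPKM in the silibinin livers and rose by 2.90 on the log2 scale (SE 0.62, limma, Benjamini-Hochberg adjusted p = 0.03). Ckap2 lost its call without control livers 1, 2 or 3 or silibinin livers 1 or 2 (adjusted p = 0.093, 0.087, 0.067, 0.11 and 0.11, limma, Benjamini-Hochberg). Cdkn2c, an inhibitor of the kinases Cdk4 and Cdk6, was at 2.46, 2.07 and 2.61 FPKM in the control livers and at 6.79, 9.06 and 7.83 FPKM in the silibinin livers. The model livers, at 2.46, 2.24 and 2.97 FPKM, overlapped the control livers, and the silibinin livers stood apart from both. The phloridzin livers, at 8.92, 7.09 and 5.33 FPKM, overlapped the silibinin livers. Cdkn2c rose by 1.39 on the log2 scale (SE 0.17, limma, Benjamini-Hochberg adjusted p = 0.0032) over the control group, and it was higher than in the model group by 1.32 (limma, Benjamini-Hochberg adjusted p = 0.0011). With the transcript of highest mean taken for the gene, the first of these had an adjusted p-value of 0.45 (limma, Benjamini-Hochberg). Phlda3, a p53 target that restrains Akt, rose by 1.23 on the log2 scale (SE 0.23, limma, Benjamini-Hochberg adjusted p = 0.016). Phlda3 lost its call without control livers 1 or 2 or silibinin livers 1 or 2 (adjusted p = 0.057, 0.056, 0.064 and 0.064, limma, Benjamini-Hochberg).

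On the lists of lipid synthesis, lipid droplets and uptake, and fatty acid oxidation, 2.17%, 3.85% and 2.44% of tested members were called higher. The shares called lower were 0%, 3.85% and 2.44%, and each share above 0 stands for 1 gene. Among all 13113 genes tested, 1.11% were called higher and 0.435% lower. Scd1 (chr19:44394455-44407879), the desaturase that makes oleate, was at 20.7, 27.4 and 26.4 FPKM in the control livers and at 211, 328 and 267 FPKM in the silibinin livers. Every silibinin liver was far above the control livers, and Scd1 rose by 3.37 on the log2 scale (SE 0.30, limma, Benjamini-Hochberg adjusted p = 0.00061). It was the single gene called among 46 tested genes of cholesterol and fatty acid synthesis, where the median was 0.16. In 12 of the 46, all silibinin livers were above the control range, against 1889 of 13113 genes tested. FPKM as deposited gave 4 called higher. Fitm1 (chr14:55575617-55576954), a protein that helps to form lipid droplets, was at 13, 20.1 and 12.5 FPKM in the control livers and at 0.718, 1.03 and 0.811 FPKM in the silibinin livers. The control livers were apart from the silibinin livers by a wide margin, and Fitm1 fell by 3.10 on the log2 scale (SE 0.22, limma, Benjamini-Hochberg adjusted p = 0.00011). Of 26 tested genes of lipid droplets and fatty acid uptake, Lpl was the only one called higher and Fitm1 the only one called lower, with a median of -0.07. Fatty acid oxidation had 41 genes tested and a median of 0.04. Pdk4, the kinase that holds back pyruvate oxidation, rose by 1.20 on the log2 scale (SE 0.21, limma, Benjamini-Hochberg adjusted p = 0.014). Pdk4 lost its call without control liver 1 or silibinin livers 1 or 2 (adjusted p = 0.059, 0.051 and 0.06, limma, Benjamini-Hochberg).

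Aldh1b1 (chr4:45799022-45804604), a mitochondrial aldehyde dehydrogenase, was higher than in the model as well as the control livers. It was at 20.04, 16.5 and 16.1 FPKM in the control livers and at 79.6, 79.5 and 87.7 FPKM in the silibinin livers, and at 26.0, 20.3 and 30.5 FPKM in the model livers. The silibinin livers were nearly equal and above these 6, while the phloridzin livers, at 50.2, 72.7 and 94.0 FPKM, overlapped them. Aldh1b1 rose by 2.17 on the log2 scale (SE 0.22, limma, Benjamini-Hochberg adjusted p = 0.0015) over the control group and by 1.66 over the model group (limma, Benjamini-Hochberg adjusted p = 0.0011). Abcd2, a peroxisomal transporter of fatty acids that is higher in female liver, was at 1.17, 2.39 and 1.45 FPKM in the control livers and at 6.20, 6.62 and 18.2 FPKM in the silibinin livers, with silibinin liver 3 the highest, and rose by 1.96 on the log2 scale (SE 0.40, limma, Benjamini-Hochberg adjusted p = 0.026). Abcd2 lost its call without control livers 1 or 3 or silibinin liver 2 (adjusted p = 0.09, 0.068 and 0.053, limma, Benjamini-Hochberg). In iron and zinc handling, 2 of 30 tested genes rose, with a median of -0.20. Hamp2 (chr7:30922372-30924681), a copy of the hepcidin gene that resembles Hamp so that reads may be shared, was at 7.29, 6.43 and 4.30 FPKM in the control livers and at 26.1, 65.1 and 28.1 FPKM in the silibinin livers. Silibinin liver 2 was the highest, and Hamp2 rose by 2.44 on the log2 scale (SE 0.49, limma, Benjamini-Hochberg adjusted p = 0.023). Hamp2 lost its call without control livers 1, 2 or 3 or silibinin livers 1 or 2 (adjusted p = 0.06, 0.063, 0.068, 0.053 and 0.085, limma, Benjamini-Hochberg). Slc39a4, a zinc importer, rose by 1.12 (SE 0.24, limma, Benjamini-Hochberg adjusted p = 0.029). Slc39a4 lost its call without control livers 1 or 3 or silibinin livers 1 or 2 (adjusted p = 0.093, 0.08, 0.097 and 0.11, limma, Benjamini-Hochberg).

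**Figure D4:**
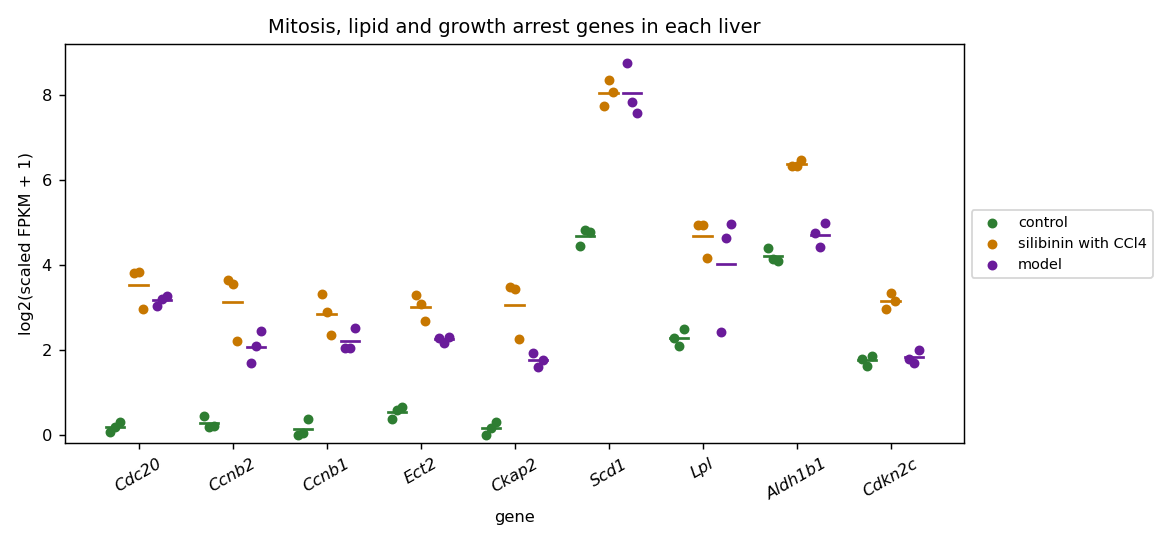
Levels of 9 genes of mitosis, growth arrest and lipid metabolism as log2(scaled FPKM + 1) in the control, silibinin and model livers, with 1 point for each liver and a bar at the group mean. All 9 are higher in the 3 silibinin livers than in the 3 control livers, and Ect2, Ckap2, Cdkn2c and Aldh1b1 are also above the 3 model livers.

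Genes that stayed lower included several of the hepatocytes next to the central vein. Of 22 tested pericentral genes, 5 fell, with a median of -0.33. In 10 of the 22, all silibinin livers were below the control range, against 1994 of 13113 genes tested. Glul (chr1:153899944-153909723), glutamine synthetase, was at 526, 349 and 480.4 FPKM in the control livers and at 52.5, 69.1 and 61.9 FPKM in the silibinin livers. The lowest control liver was about 5 times the highest silibinin liver, and Glul fell by 2.85 on the log2 scale (SE 0.21, limma, Benjamini-Hochberg adjusted p = 0.00014). The model livers were lower again at 26.1, 30.03 and 31.1 FPKM, and the silibinin group was above them by 1.04 (limma, Benjamini-Hochberg adjusted p = 0.011). Oat (chr7:132557478-132576398), ornithine aminotransferase, was at 635, 499 and 614 FPKM in the control livers and at 29.6, 33.4 and 73.2 FPKM in the silibinin livers, with silibinin liver 3 nearest to the control livers. Oat fell by 3.76 on the log2 scale (SE 0.49, limma, Benjamini-Hochberg adjusted p = 0.0038). Its level in the model livers was 10.6, 14.4 and 15.2 FPKM, with a log2 fold change of silibinin over model of 1.58 (limma, Benjamini-Hochberg adjusted p = 0.063).

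Slc1a2 (chr2:102658659-102790784), the glutamate importer of the same cells, was at 87.1, 47.2 and 43.7 FPKM in the control livers and at 0.135, 0.781 and 4.14 FPKM in the silibinin livers. It was nearly absent from silibinin liver 1 and highest in silibinin liver 3, still below all control livers. Slc1a2 fell by 4.72 on the log2 scale (SE 0.69, limma, Benjamini-Hochberg adjusted p = 0.0063), with an adjusted p-value of 0.07 by limma voom on recovered fragments (Benjamini-Hochberg). Slc13a3, a carrier of dicarboxylates, fell by 2.07 on the log2 scale (SE 0.34, limma, Benjamini-Hochberg adjusted p = 0.011). Slc13a3 lost its call without silibinin liver 2 (adjusted p = 0.052, limma, Benjamini-Hochberg). Lhpp (chr7:132610638-132706420), a phosphatase, was at 42.4, 35.8 and 41.2 FPKM in the control livers and at 4.66, 4.39 and 6.41 FPKM in the silibinin livers and at 0.455, 1.83 and 1.59 FPKM in the model livers. The 3 groups did not meet, and Lhpp fell by 2.74 on the log2 scale (SE 0.29, limma, Benjamini-Hochberg adjusted p = 0.0017). With protein-coding transcripts only, its log2 fold change was 0.042 (adjusted p = 0.97, limma, Benjamini-Hochberg). Genes called lower on the list numbered 5, 6 and 6 without control livers 1, 2 and 3 and 5, 4 and 7 without silibinin livers 1, 2 and 3. Cyp2e1, the enzyme that activates CCl4, was at 4284, 1601 and 4247 FPKM in the control livers and at 1521, 643 and 1178 FPKM in the silibinin livers. All silibinin livers were below the control livers, with control liver 2 close to silibinin liver 1, and the log2 fold change of -1.55 was not called (SE 0.41, limma, Benjamini-Hochberg adjusted p = 0.06). Without control liver 2, Cyp2e1 was called lower. Of 21 tested periportal genes, Aldh1b1 alone was called, and the median was -0.26.

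Cytochrome P450 enzymes of families 1 to 4, which oxidise drugs, steroids and fatty acids, had 52 genes tested, of which 5 fell and 2 rose, with a median of -0.36. Cyp2c37 (chr19:39992424-40012243) was at 244, 211 and 155 FPKM in the control livers and at 30.2, 27.9 and 25.1 FPKM in the silibinin livers. The silibinin livers were close together and far below, and Cyp2c37 fell by 2.81 on the log2 scale (SE 0.36, limma, Benjamini-Hochberg adjusted p = 0.0037). The neighbouring Cyp2c54, Cyp2c50 and Cyp2c69 and the male-biased Cyp4a12a fell, with log2 fold changes of -1.68, -1.21, -1.74 and -1.53, and Cyp2c55 and Cyp2a22 rose by 1.56 and 1.28. The Cyp2c genes are close paralogs, so the level of each is uncertain. Cyp2c54 lost its call without control livers 1, 2 or 3 or silibinin livers 1, 2 or 3 (adjusted p = 0.11, 0.091, 0.054, 0.071, 0.1 and 0.076, limma, Benjamini-Hochberg). Cyp2c50 lost its call without control livers 1, 2 or 3 or silibinin livers 1, 2 or 3 (adjusted p = 0.081, 0.12, 0.088, 0.07, 0.1 and 0.086, limma, Benjamini-Hochberg). Cyp2c69 lost its call without control livers 1 or 2 or silibinin livers 1, 2 or 3 (adjusted p = 0.13, 0.11, 0.1, 0.16 and 0.089, limma, Benjamini-Hochberg). Cyp4a12a lost its call without control livers 2 or 3 or silibinin livers 1 or 2 (adjusted p = 0.095, 0.058, 0.12 and 0.12, limma, Benjamini-Hochberg). Cyp2a22 lost its call without silibinin livers 1 or 2 (adjusted p = 0.051 and 0.052, limma, Benjamini-Hochberg). Calls of these 4 lower genes were also lost with FPKM as deposited, at adjusted p-values of 0.053, 0.097, 0.064 and 0.053 (limma, Benjamini-Hochberg). Genes called lower on this list numbered 2, 2 and 2 without control livers 1, 2 and 3 and 1, 1 and 5 without silibinin livers 1, 2 and 3. In bile acid synthesis, Cyp7b1 (chr3:18071950-18243338), the oxysterol hydroxylase of the alternative route and a male-biased gene, was at 209, 151 and 182 FPKM in the control livers and at 16.0, 25.8 and 43.5 FPKM in the silibinin livers. The silibinin livers were lower by a wide margin, and Cyp7b1 fell by 2.72 on the log2 scale (SE 0.48, limma, Benjamini-Hochberg adjusted p = 0.012). Cyp7b1 lost its call without control liver 1 or silibinin livers 1 or 2 (adjusted p = 0.052, 0.057 and 0.053, limma, Benjamini-Hochberg). Cyp39a1, another oxysterol hydroxylase, rose by 1.06 (SE 0.22, limma, Benjamini-Hochberg adjusted p = 0.029). Cyp39a1 lost its call without control livers 2 or 3 or silibinin livers 1 or 2 (adjusted p = 0.058, 0.071, 0.064 and 0.1, limma, Benjamini-Hochberg).

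Male-biased liver genes depend on the pulses of growth hormone in male mice. Of 35 tested, 8 fell, with a median of -0.93. In 22 of the 35, all silibinin livers were below the control range, against 1994 of 13113 genes tested. Moxd1 (chr10:24223517-24302790), a copper monooxygenase, was at 32.4, 10.9 and 52.0 FPKM in the control livers and was listed at 0 in silibinin livers 1 and 2 and at 0.0765 FPKM in silibinin liver 3. It was as low in the model livers, at 0, 0.0449 and 0.0774 FPKM. Moxd1 fell by 4.75 on the log2 scale (SE 0.43, limma, Benjamini-Hochberg adjusted p = 0.00061), with an adjusted p-value of 0.079 by limma voom (Benjamini-Hochberg). Susd4, a regulator of complement, fell by 1.19 on the log2 scale (SE 0.18, limma, Benjamini-Hochberg adjusted p = 0.0079), with an adjusted p-value of 0.061 by limma voom. Of 23 tested female-biased genes, Abcd2 and Atp6v0d2 rose and Cyp2c69 fell, with a median of -0.03. Genes called lower on the male-biased list numbered 6, 5 and 5 without control livers 1, 2 and 3 and 4, 4 and 7 without silibinin livers 1, 2 and 3.

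Major urinary proteins, pheromone carriers that male liver secretes in large amounts, held the largest falls. Of 22 tested urinary proteins and related lipocalins, 7 fell, with a median of -2.19, and Mup1, Mup2, Mup11 and Mup12 are also among the 8 male-biased genes that fell. Their summed level was 11558, 14471 and 20395 FPKM in the control livers and 4837, 5167 and 5371 FPKM in the silibinin livers, with no overlap, and the model livers were at 4082, 3855 and 3643 FPKM. Mup2 (chr4:60135932-60154289) was at 522, 359.8 and 797 FPKM in the control livers and at 0.693, 0.517 and 0.850 FPKM in the silibinin livers. The silibinin livers held almost none of it, and Mup2 fell by 8.31 on the log2 scale (SE 0.57, limma, Benjamini-Hochberg adjusted p = 0.00011). Mup1, Mup18 and Mup9 fell with log2 fold changes of -6.45, -6.26 and -5.32 (limma, Benjamini-Hochberg adjusted p = 0.0017, 0.0039 and 0.0023), and Mup12 and Mup11 with changes of -8.78 and -7.48 (adjusted p = 0.042 and 0.03). Mup12 and Mup11 lost their calls without any 1 of the 6 livers, at adjusted p-values from 0.051 to 0.13 (limma, Benjamini-Hochberg). For Mup9 the adjusted p-value was 0.21 with protein-coding transcripts only, and for Mup18 it was 0.072 by limma voom (Benjamini-Hochberg). These genes are near-identical paralogs on chromosome 4, so the level of each is uncertain. The most abundant of the family, Mup3 and Mup20, were below the control range in all silibinin livers without being called. Mup3 was at 3845, 5524 and 6148 FPKM in the control livers and at 2829, 2633 and 2420.5 FPKM in the silibinin livers (log2 fold change -0.95, SE 0.32, limma, Benjamini-Hochberg adjusted p = 0.12). Obp2a, a lipocalin outside the family, was at 2.51, 4.13 and 4.65 FPKM against 0, 0.776 and 0.265 FPKM and fell by 1.83 on the log2 scale (SE 0.24, limma, Benjamini-Hochberg adjusted p = 0.0038), with an adjusted p-value of 0.095 by limma voom.

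**Figure D5:**
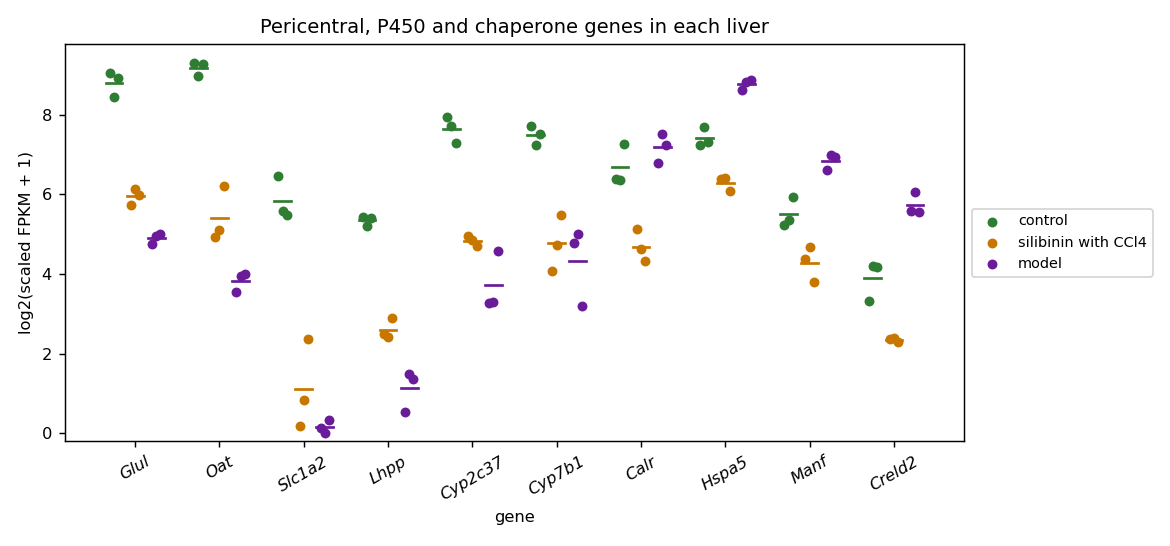
Levels of 10 genes that fell, as log2(scaled FPKM + 1) in the control, silibinin and model livers, with 1 point for each liver and a bar at the group mean. All 10 are lower in the 3 silibinin livers than in the 3 control livers, and Calr, Hspa5, Manf and Creld2 are lower in the silibinin livers than in the model livers.

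Chaperones of the endoplasmic reticulum help secreted proteins to fold. Of 58 tested genes of this group and of the unfolded protein response, 5 fell (8.62%, against 0.435% of all genes tested), with a median of -0.38. In 32 of the 58, all silibinin livers were below the control range, and in 0 were they all above it, against 1994 below and 1889 above among all genes tested. The summed level was 2705, 2824 and 2487 FPKM in the control livers and 2062, 1925 and 2025 FPKM in the silibinin livers, which do not overlap. In the model livers it was 4097, 4599.9 and 3940.1 FPKM. Of the same genes, 24 were called lower in the silibinin group than in the model group, and 12 were called higher and 1 lower in the model group than in the control group, comparisons that share these livers. Among all genes tested, 1.82% were called lower in the silibinin group than in the model group. For model against control, 3.82% were called higher and 3.67% lower.

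Calr (chr8:84841850-84846934), the calcium-binding lectin chaperone calreticulin, was at 83.1, 81.4 and 154 FPKM in the control livers and at 34.2, 23.6 and 18.9 FPKM in the silibinin livers. Control liver 3 was the highest and no silibinin liver came near the control livers. Calr fell by 1.99 on the log2 scale (SE 0.34, limma, Benjamini-Hochberg adjusted p = 0.011). Calr lost its call without silibinin liver 2 (adjusted p = 0.052, limma, Benjamini-Hochberg). Creld2 (chr15:88819646-88826683), a disulfide isomerase induced by misfolded protein, was at 9.00, 17.4 and 17.1 FPKM in the control livers and at 4.16, 4.26 and 3.90 FPKM in the silibinin livers. Its model livers were at 47.0, 65.6 and 45.8 FPKM, so that the control livers lay between the others. Creld2 fell by 1.55 on the log2 scale (SE 0.22, limma, Benjamini-Hochberg adjusted p = 0.0061) and kept its call without any 1 liver. Hspa5 (chr2:34771970-34777547), the master chaperone BiP, was at 151, 206 and 159 FPKM in the control livers and at 82.2, 84.4 and 67.0 FPKM in the silibinin livers and at 396, 456 and 464 FPKM in the model livers. The 3 groups did not overlap, in the order silibinin, control, model. Hspa5 fell by 1.13 on the log2 scale (SE 0.16, limma, Benjamini-Hochberg adjusted p = 0.0061), and without control liver 2 the log2 fold change was -0.99, just short of the cutoff. Manf and Sdf2l1, a secreted and a resident protein of this compartment, fell with log2 fold changes of -1.23 (SE 0.26, limma, Benjamini-Hochberg adjusted p = 0.03) and -1.12 (SE 0.20, limma, Benjamini-Hochberg adjusted p = 0.015). Manf lost its call without control livers 1, 2 or 3 or silibinin livers 1 or 3 (adjusted p = 0.052, 0.068, 0.08, 0.083 and 0.06, limma, Benjamini-Hochberg). Sdf2l1 lost its call without control livers 2 or 3 or silibinin liver 2 (adjusted p = 0.056, 0.05 and 0.058, limma, Benjamini-Hochberg).

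Scaling bears on this group. With FPKM as deposited, 2 of the 58 genes were called lower, and log2 fold changes were -0.87 for Hspa5, -0.88 for Sdf2l1 and -0.98 for Manf, none past the cutoff. Genes called lower on this list numbered 4, 2 and 3 without control livers 1, 2 and 3 and 4, 3 and 4 without silibinin livers 1, 2 and 3. P4hb, the most abundant member, was at 513, 477 and 2.79 FPKM in the control livers and at 441, 344 and 416 FPKM in the silibinin livers, where control liver 3 stood far from its group, and it was not called (SE 1.48, limma, Benjamini-Hochberg adjusted p = 0.47).

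Promoters of 3 of these genes are shown because they hold the endoplasmic reticulum stress response element (ERSE), written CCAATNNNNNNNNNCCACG, which contains the CCAAT box. The windows are cut and written as above, and capitals mark the ERSE on either strand. They are chr2:34771840-34772139, plus strand for Hspa5, chr15:88819396-88819695, plus strand for Creld2 and chr8:84846882-84847181, minus strand for Calr.
Hspa5: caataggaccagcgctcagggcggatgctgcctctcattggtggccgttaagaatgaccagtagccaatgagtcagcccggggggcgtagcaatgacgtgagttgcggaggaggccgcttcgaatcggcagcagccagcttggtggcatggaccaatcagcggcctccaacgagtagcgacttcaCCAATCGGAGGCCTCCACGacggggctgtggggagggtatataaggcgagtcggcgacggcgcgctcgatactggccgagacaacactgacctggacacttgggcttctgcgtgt
Creld2: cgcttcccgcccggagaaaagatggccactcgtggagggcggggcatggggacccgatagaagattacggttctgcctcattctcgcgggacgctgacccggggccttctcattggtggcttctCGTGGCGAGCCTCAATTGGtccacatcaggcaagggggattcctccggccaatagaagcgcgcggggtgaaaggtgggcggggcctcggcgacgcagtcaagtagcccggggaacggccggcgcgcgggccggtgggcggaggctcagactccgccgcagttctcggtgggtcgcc
Calr: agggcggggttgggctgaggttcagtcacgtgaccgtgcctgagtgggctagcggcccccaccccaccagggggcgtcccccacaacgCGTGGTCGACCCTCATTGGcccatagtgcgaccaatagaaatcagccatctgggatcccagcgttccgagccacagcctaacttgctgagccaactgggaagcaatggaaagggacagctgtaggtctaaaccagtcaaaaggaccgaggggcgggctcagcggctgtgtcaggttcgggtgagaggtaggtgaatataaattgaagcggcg
The element begins at -65 in Hspa5 on the strand of the gene, and at -126 in Creld2 and -162 in Calr on the other strand. Of the 4 genes called lower that had a window, 3 held it, Sdf2l1 being the exception. It was found in 9 of 48 tested members with a window (18.8%) and in 37 of 27025 genes (0.137%). Use of these elements was not measured.

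Stress responses were read from 2 lists. Of 31 tested genes of the integrated stress response, 1 rose, with a median of -0.01, while 16 were called higher and 1 lower in the model group than in the control group. Among 32 AP-1 and immediate early genes, 1 rose, with a median of 0.25, beside 17 called higher in the model group than in the control group. Of all 13113 genes, 1.11% were called higher in the silibinin group than in the control group. For model against control, the shares were 3.82% higher and 3.67% lower. A count of 1 on lists of this size is near the first of these shares. Atf3, a stress-induced repressor and a member of both lists, was the gene that rose. It was at 0.379, 0.282 and 0.438 FPKM in the control livers and at 2.38, 2.11 and 1.01 FPKM in the silibinin livers, and at 35.9, 37.7 and 42.9 FPKM in the model livers. The silibinin livers were above the control livers yet far below the model livers. Atf3 rose by 1.02 on the log2 scale (SE 0.22, limma, Benjamini-Hochberg adjusted p = 0.029). Atf3 lost its call without control livers 1, 2 or 3 or silibinin livers 1 or 2 (adjusted p = 0.086, 0.094, 0.062, 0.11 and 0.11, limma, Benjamini-Hochberg).

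On several lists of liver genes, few or no members were called. Among all genes tested, 1.11% were called higher and 0.435% lower, and a count of 0 on lists of this size is near those shares. Of 20 secreted hepatocyte proteins, 24 hepatocyte transcription factors and nuclear receptors, 52 phase II conjugation enzymes, 41 genes of glucose metabolism and 27 of serine, methionine and one-carbon metabolism, limma called 0, and limma voom called 0 but for 1 of glucose metabolism. Unadjusted p-values under 0.05 numbered 3, 4, 11, 8 and 7 on these lists, and their medians were -0.31, -0.15, -0.06, 0.17 and -0.04. Among 31 acute phase proteins limma and limma voom called 0, with 5 unadjusted p-values under 0.05, though the median was -0.88. The 35 cytosolic heat shock proteins (median -0.20), 24 circadian clock genes (0.01), 64 cytosolic ribosomal proteins (-0.09) and 9 mitochondrially encoded genes (0.14) had 0 called by limma and limma voom, and 9, 4, 5 and 0 unadjusted p-values under 0.05. For the urea cycle and amino acid breakdown, 2 of 42 genes fell, Glul and Oat, with a median of -0.20. In the model group, 12 of the 42 were called lower than in the control group, against 3.67% of all genes tested. Among 47 NRF2 pathway and antioxidant genes, Akr1b10 was the single gene called, with a log2 fold change of 1.03 and a median for the list of 0.14. Its log2 fold change was 0.96 without control liver 2 and 0.94 without silibinin liver 2, and 0.27 when only protein-coding transcripts were summed (adjusted p = 0.62, limma, Benjamini-Hochberg).

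Of 36 sinusoidal endothelial and vascular markers, Cd34, which sinusoids gain as they take on features of capillaries, was the gene that rose, by 1.35 (SE 0.26, limma, Benjamini-Hochberg adjusted p = 0.02), with a median of -0.20. Cd34 lost its call without control livers 1 or 2 or silibinin livers 1 or 2 (adjusted p = 0.074, 0.073, 0.083 and 0.084, limma, Benjamini-Hochberg). Stab2 and Lyve1, receptors of sinusoidal cells, overlapped, while Clec4g, a lectin of these cells, was below the control range at 34.0, 32.6 and 41.9 against 16.8, 29.6 and 12.7 FPKM and was called without silibinin liver 2 but not in the main fit (SE 0.29, limma, Benjamini-Hochberg adjusted p = 0.1). Of 17 cholangiocyte and ductular markers, Sox4, a transcription factor of ductular cells, rose by 1.20 (SE 0.13, limma, Benjamini-Hochberg adjusted p = 0.0019). Of 41 cytoskeleton and stressed epithelium genes, Anxa1 and Gpc3 rose, with a median of 0.28. The number called was 1, 1 and 1 without control livers 1, 2 and 3 and 1, 0 and 5 without silibinin livers 1, 2 and 3, and the log2 fold change of Anxa1 was 0.94 without silibinin liver 1 and 0.998 without silibinin liver 2.

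Outside the lists, 102 called genes remained. Hnrnpa0 (chr13:58125879-58128556), an RNA-binding protein, had the largest fall of a gene on no list, at 6.16, 9.77 and 6.19 FPKM in the control livers and at 0.00343, 0.0349 and 0.00367 FPKM in the silibinin livers. The silibinin livers were near 0, and Hnrnpa0 fell by 3.02 on the log2 scale (SE 0.70, limma, Benjamini-Hochberg adjusted p = 0.04). Without any 1 of the 6 livers its call was lost, at adjusted p-values from 0.076 to 0.13 (limma, Benjamini-Hochberg). The call was also lost with the transcript of highest mean and with no filter on low values, at 0.078 and 0.069 (limma, Benjamini-Hochberg). By limma voom the adjusted p-value was 0.2 (Benjamini-Hochberg).

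Medians over the called genes can be set side by side with the model group. Over the 145 genes that rose against the control group, the median log2 fold change was 1.28 for silibinin over control, 1.28 for model over control and 0.05 for silibinin over model. Over the 57 that fell, these medians were -1.55, -1.47 and -0.17. The 3 comparisons share livers and the genes were selected in the first of them, so these medians describe the selected genes and test nothing, and single genes went either way between silibinin and model, such as Atf3 (-3.84) and Aldh1b1 (1.66).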

How the data were processed

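RNA of 12 mouse livers, 3 per group, was sequenced. The deposited FPKM of transcripts were made by the authors, per their processing notes, with bcl2fastq, FastQC 0.11.5, HISAT2 2.1.0, StringTie 1.3.3b and DESeq 1.28.0 on mm10, and the unit was read from the values because the authors do not state it. FPKM were summed over a symbol and scaled by median ratios. Genes with a mean of at least 0.5 FPKM over the 12 livers were fitted in 1 limma model of log2(FPKM + 1) with a trend, and p-values were adjusted by Benjamini-Hochberg over 13113 genes. Assembled and NONCODE transcripts were not tested. The code was tested on simulated data. R 4.3.3, limma 3.58.1, Python 3.11.15, numpy 2.4.6, pandas 2.3.3 and matplotlib 3.10.9 were used. Named were the 12 largest rises and falls among called genes with a mean of at least 1 FPKM and a named symbol, up to 4 called members of each list and a panel. Other called members and markers were named after their values were seen. Members and lists were chosen with earlier results of these data known.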

Additional observations from a re-analysis of the deposited data

How the results depend on the processing

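Counts of genes called by limma moved with the choice of scaling, pseudocount and cutoff. In the order higher and lower, the main fit gave 145 and 57 genes for silibinin against control, 191 and 239 for silibinin against model, and 501 and 481 for model against control. With FPKM as deposited, these were 229 and 32, 98 and 428, and 1240 and 142, so scaling sets the balance of directions in all 3 comparisons. A pseudocount of 0.1 gave 488 genes higher than control, 295 higher than model and 1067 higher in model than control, and a pseudocount of 0.5 gave 286 higher than control and 757 higher in model than control. Without a cutoff on fold change the counts were 401 and 189, 732 and 830, and 1647 and 1662. At an adjusted p-value under 0.01 (limma, Benjamini-Hochberg) they were 59 and 24 for silibinin against control, with 106 higher than model. With the transcript of highest mean standing for the gene, 77 were higher and 36 lower than control. Upper quartile scaling (166 and 53), a minimum mean of 1 FPKM (143 and 51), no filter (114 and 41), no trend (146 and 58), only the livers of the 2 groups (175 and 48) and protein-coding transcripts (111 and 50) stayed within 1.5 times of the main counts for silibinin against control.

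Leaving out 1 liver in turn gave 63 to 198 genes higher and 29 to 65 lower than control, 109 to 224 higher and 198 to 254 lower than model, and 428 to 516 higher and 361 to 531 lower in model than control. The extremes for silibinin against control came from silibinin livers 2 and 3.

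The labels give groups the same replicate numbers. With the number as a replicate block in a paired fit, 133 genes were higher and 47 lower than control. Correlations of the deviations of control and silibinin livers with the same number were 0.01, 0.02 and 0.03, so the number pairs nothing that could be seen.

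Of the 202 called genes, 83 were also called without silibinin liver 2, 98 without silibinin liver 1, 98 with the transcript of highest mean, 148 with only the livers of the 2 groups and 175 with FPKM as deposited. Lhpp changed sign, from a log2 fold change of -2.74 to 0.042 with protein-coding transcripts only (adjusted p = 0.97, limma, Benjamini-Hochberg), and the cause was not tested. With the transcript of highest mean, calls of Capg, Cxcr4, Fbn1, Hamp2, Postn and Ms4a7 were also lost, at adjusted p-values of 0.14, 0.11, 0.43, 0.31, 0.21 and 0.07 (limma, Benjamini-Hochberg). Chosen after seeing the data, limma voom on recovered fragments gave 386 higher and 77 lower than control, size factors and a fit over the 6 livers 163 and 46, and robust limma 145 and 55.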
